A study of Mus musculus with 12 samples.

Results

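Messenger RNA of fibroblasts grown from mouse embryos (MEFs) was compared after 24 h with Torin1 at 250 nM and after 24 h with the solvent DMSO. Torin1 is a small molecule that competes with ATP in the catalytic site of the kinase mTOR. The 3 libraries of each group, chosen by their titles, are 6 of the 12 libraries of a study that also treated the same cells with rapamycin at 20 ng/ml and with RapaLink-1 at 10 nM. All groups were kept in DMEM with 10% fetal bovine serum, and the labels name no genotype, transgene or other agent for any of them. They also give no strain, passage or embryo age and leave unsaid whether replicates were separate cultures, and the p-values then cover the spread among these libraries alone, which may be technical. Of 49315 genes in the count tables, 15917 passed the filter on low counts and were tested.

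The kinase mTOR works in 2 complexes. In mTORC1, which contains Raptor, it is switched on at the lysosome by amino acids through the Rag GTPases and by growth factors through Rheb, and it drives protein, nucleotide and lipid synthesis while it holds back autophagy. In mTORC2, which contains Rictor, it phosphorylates the kinase Akt, which keeps FoxO transcription factors out of the nucleus. An inhibitor of the catalytic site acts on both complexes, whereas rapamycin acutely blocks only part of the output of mTORC1.

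Total counts were 34696405 to 39423703 per library with DMSO and 31328365 to 37762480 with Torin1. Mitochondrially encoded messages made up 1.08% to 1.11% of counts with DMSO and 1.36% to 1.39% with Torin1. The biological coefficient of variation was 1.48%, and no pair of libraries agreed within sampling noise (chi-square over degrees of freedom 1.34 to 2.06). Levels are given as CPM (counts relative to library size), scaled between libraries by TMM factors. Of 12 fibroblast markers, 11 were tested. The summed level of all 12 was 17400.4 to 17729 CPM with DMSO and 12975 to 13143 CPM with Torin1. Col1a1, Col1a2 and vimentin (Vim) made up most of it. Col1a1 fell and was at 5503 to 5621 CPM with DMSO and 3477 to 3573 CPM with Torin1. Col1a2 fell too (6961 to 7110 and 3898 to 3981 CPM), and Vim rose (3418 to 3461 and 4362 to 4417 CPM). Of the 11 tested markers 5 rose, among them Vim (0.36 ± 0.01 on the log2 scale) and Thy1 (0.60 ± 0.03). In all 5 fell, among them also Col3a1 and S100a4 (-1.08 ± 0.02, 51.7% of its exonic bases shared with another gene). The summed level of 8 epithelial markers was 0.983 to 1.23 CPM with DMSO and 1.22 to 1.92 CPM with Torin1, that of 6 endothelial markers was 0.841 to 1.59 and 2.35 to 2.51 CPM, and that of 8 blood cell markers 9.32 to 9.77 and 7.82 to 8.65 CPM. Muscle markers summed to 0.279 to 0.368 and 0.992 to 1.25 CPM, with Myod1, Myog and Ckm at 0, and adipocyte markers to 30.5 to 31.7 and 31.3 to 33.0 CPM, with Plin1 at 0. Neural and glial markers summed to 338 to 347 and 259 to 267 CPM, with Sox2 and Sox10 at 0 and most of the sum in Nes, nestin, which cultured fibroblasts also express. Bone and cartilage markers summed to 181 to 182 and 153 to 160 CPM, most of it in Runx2 and Sox9. Of these markers Runx2 (0.14) and Col2a1 (0.51) rose, and Sox9 (-0.70) and Acan (-2.40) fell. Pluripotent markers summed to 0.614 to 0.657 and 0.801 to 1.13 CPM, with Zfp42 at 0. In a bulk library a lower level from fewer cells of a type and one from less RNA per cell cannot be told apart.

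Torin1 changed most of the messages that could be tested. Calls were made with the quasi-likelihood test of edgeR at a Benjamini-Hochberg adjusted p below 0.05 over all tested genes, and "rose" and "fell" are used only of called genes. By that rule 78% of the tested genes were called, 39.8% as higher (6332) and 38.3% as lower (6090), and in 78.5% the 3 libraries of one group lay wholly above the 3 of the other. Over all tested genes, 1921 genes (12.1%) rose and 1011 (6.35%) fell by at least 2-fold, 366 (2.3%) and 92 (0.578%) by at least 4-fold, and 78 (0.49%) and 15 (0.0942%) by at least 8-fold. The direction of the 2-fold changes differed by level: under a mean of 1 CPM 882 rose and 246 fell by that much, at 1 to 10 CPM 625 and 185, from 10 CPM up to 100 CPM 328 and 396, and at 100 CPM or more 86 and 184. The median log2 fold change over all tested genes was 0.04. These shares are the background against which each gene list below should be read: a list in which about 2 in 5 members rose and as many fell did what all genes did. With upper-quartile in place of TMM factors the log2 fold changes moved up by 0.13 at the median, 60.4% rather than 51% of the called genes were higher, and the medians of lists close to 0 moved above it. Values after ± are standard errors for log2 fold changes and SDs over 3 libraries for levels.

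Among the genes with the largest rises were several secreted and contractile proteins. Pappa, a protease that frees insulin-like growth factors from their binding proteins, was at 17.6, 17.3 and 17.0 CPM with DMSO and 113, 112 and 118 CPM with Torin1, a log2 fold change of 2.73 ± 0.04. Lmod1, leiomodin, which nucleates actin filaments in smooth muscle, was at 3.83, 3.37 and 3.66 CPM with DMSO and 33.3, 31.0 and 32.2 CPM with Torin1 (3.15 ± 0.07). Anxa8, an annexin, was at 2.18, 2.17 and 2.29 CPM with DMSO and 34.4, 34.4 and 36.9 CPM with Torin1 (3.99 ± 0.07). In each of these 3 genes every Torin1 library lay above every DMSO library, but lack of overlap was a condition for this ranking. Gdpd2, a glycerophosphodiester phosphodiesterase (3.04 ± 0.09), and Htr1b, a serotonin receptor (2.91 ± 0.09), rose too, each with 17.3% to 18% of its exonic bases shared with another gene, as did the lipid droplet protein Plin4 (3.66 ± 0.09). Among the largest falls were genes of folate metabolism, DNA synthesis and growth control. Siah2, a ubiquitin ligase of the hypoxia pathway, was at 19.6, 19.5 and 19.7 CPM with DMSO and 4.15, 4.25 and 4.22 CPM with Torin1 (-2.22 ± 0.07). Ptn, the heparin-binding growth factor pleiotrophin, was at 249.7, 243 and 246 CPM with DMSO and 54.4, 55.7 and 52.0 CPM with Torin1 (-2.19 ± 0.02). Ung, which removes uracil from DNA, was at 28.001, 27.7 and 28.1 CPM with DMSO and 4.41, 3.15 and 4.004 CPM with Torin1 (-2.86 ± 0.07). Sdf2l1, a partner of the ER chaperone BiP, fell as well (-2.53 ± 0.06). In all 4 the groups did not overlap, which the ranking again required.

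**Figure D1:**
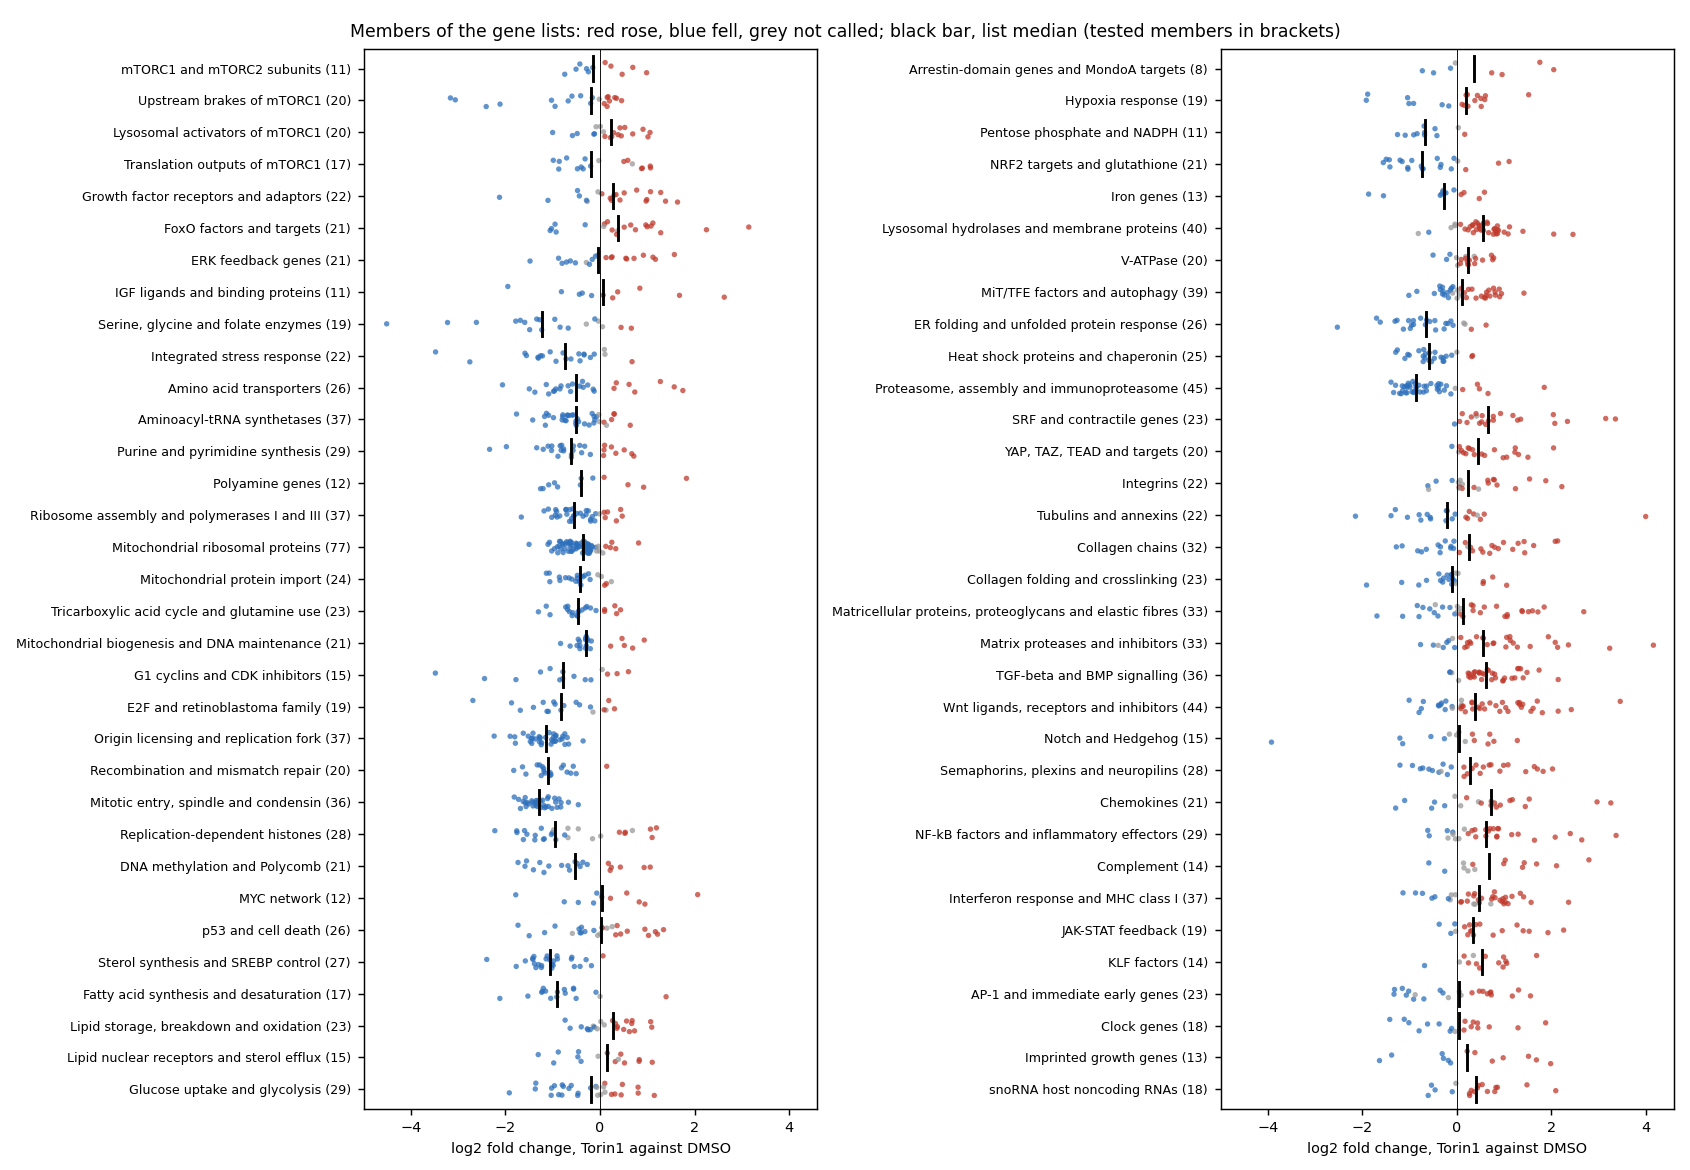
Log2 fold change of every tested member of 66 gene lists (x axis), with Torin1 against DMSO; each dot is a gene, red if it rose, blue if it fell and grey if not called, and the black bar is the list median. All 36 mitotic and all 37 replication genes lie left of 0, while 35 of 40 lysosomal and 32 of 36 TGF-beta and BMP genes rose.

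The 66 lists held 1738 genes, of which 1583 were tested, 620 rose and 827 fell. The plot of list members shows them by role, starting from the pathway that Torin1 acts on.

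The subunits of the mTOR complexes changed little and in both directions. Of 11 subunits and assembly factors, 5 rose and 6 fell (median -0.15), none by 2-fold. Rictor, which defines mTORC2, was at 85.4, 86.3 and 85.1 CPM with DMSO and 140.0, 136 and 140.0 CPM with Torin1 (0.69 ± 0.02), and Prr5l, a further mTORC2 partner, rose by 0.99. Rptor, which encodes Raptor, was at 98.7, 97.7 and 100.2 CPM with DMSO and 69.4, 67.4 and 71.8 CPM with Torin1 (-0.51 ± 0.03). Both genes were separated between the groups, in opposite directions. The kinase gene itself, Mtor (0.23 ± 0.03), and the inhibitory subunit Deptor (0.47 ± 0.06) rose slightly.

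Upstream of mTORC1 the stress-induced inhibitors fell. Of 20 genes for proteins that restrain mTORC1, 11 fell and 8 rose (median -0.18; with DESeq2's Wald test 5 rose), and 5 fell by at least 2-fold. Ddit4 (REDD1), a stress-induced activator of the TSC complex, was at 40.005, 41.7 and 41.3 CPM with DMSO and 4.83, 4.37 and 4.54 CPM with Torin1 (-3.16 ± 0.06, adjusted p = 1.01e-100). Sesn2, a leucine sensor that acts through GATOR2, was at 16.4, 17.5 and 17.4 CPM with DMSO and 3.54, 3.12 and 3.04 CPM with Torin1 (-2.41 ± 0.08). Castor2, related to the arginine sensor CASTOR1, was at 30.1, 30.9 and 31.3 CPM with DMSO and 6.67, 7.20 and 7.37 CPM with Torin1 (-2.11 ± 0.06). In these 3 genes the highest Torin1 library lay well below the lowest DMSO library. Sesn1 (-1.03 ± 0.04) and Sesn3 (-0.95 ± 0.03) fell less, and Castor1 rose (0.35 ± 0.06). The subunits of the TSC complex, which turns Rheb off, moved in both directions: Tsc2 was at 102, 103 and 103 CPM with DMSO and 139, 141 and 143 CPM with Torin1 (0.46 ± 0.02), Tsc1 rose (0.15 ± 0.03) and Tbc1d7 fell (-0.59 ± 0.07). Depdc5, a subunit of the GATOR1 complex that inactivates the Rag GTPases, fell (-0.41 ± 0.04).

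Of the 20 genes that carry the amino acid signal to mTORC1 at the lysosome, 12 rose and 5 fell, 3 of them with upper-quartile factors (median 0.23). Rragd, a Rag GTPase induced by MiT/TFE factors in other cells, was at 0.63, 0.506 and 0.223 CPM with DMSO and 0.837, 0.992 and 1.01 CPM with Torin1 (1.06 ± 0.28), and Rragc rose by 0.25 ± 0.02. Folliculin and its partner, which act on RagC and RagD, rose as well (Flcn 0.52 ± 0.03, Fnip1 0.69 ± 0.03), as did Rragb (0.91 ± 0.07) and the Rheb paralog Rhebl1 (1.01 ± 0.08). The Rag gene Rraga fell (-0.48 ± 0.03), and so did Sec13 (-1.002 ± 0.03) and Seh1l (-0.58 ± 0.02), which serve both the GATOR2 complex and the nuclear pore.

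The genes for the translation machinery that mTORC1 controls split. Of 17, 9 fell and 6 rose (median -0.20). The cap-binding protein Eif4e was at 188, 179.8 and 186 CPM with DMSO and 94.4, 92.4 and 92.4 CPM with Torin1 (-0.99 ± 0.02), and its scaffold Eif4g1 fell too (-0.86 ± 0.01). Eef2, the elongation factor that moves the ribosome along the message, was at 3746, 3723 and 3837 CPM with DMSO and 7958, 7806 and 7946 CPM with Torin1 (1.07 ± 0.01). Its inhibitory kinase Eef2k (0.59 ± 0.04), the helicase cofactor Eif4b (0.90 ± 0.01) and the translation inhibitor Pdcd4 (0.88 ± 0.04) also rose. Neither group of libraries overlapped the other in these 6 genes. The 4E-binding proteins Eif4ebp1 (-0.36 ± 0.03) and Eif4ebp2 (-0.87 ± 0.03) and the translation regulator Larp1 (-0.40 ± 0.02) fell.

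**Figure D2:**
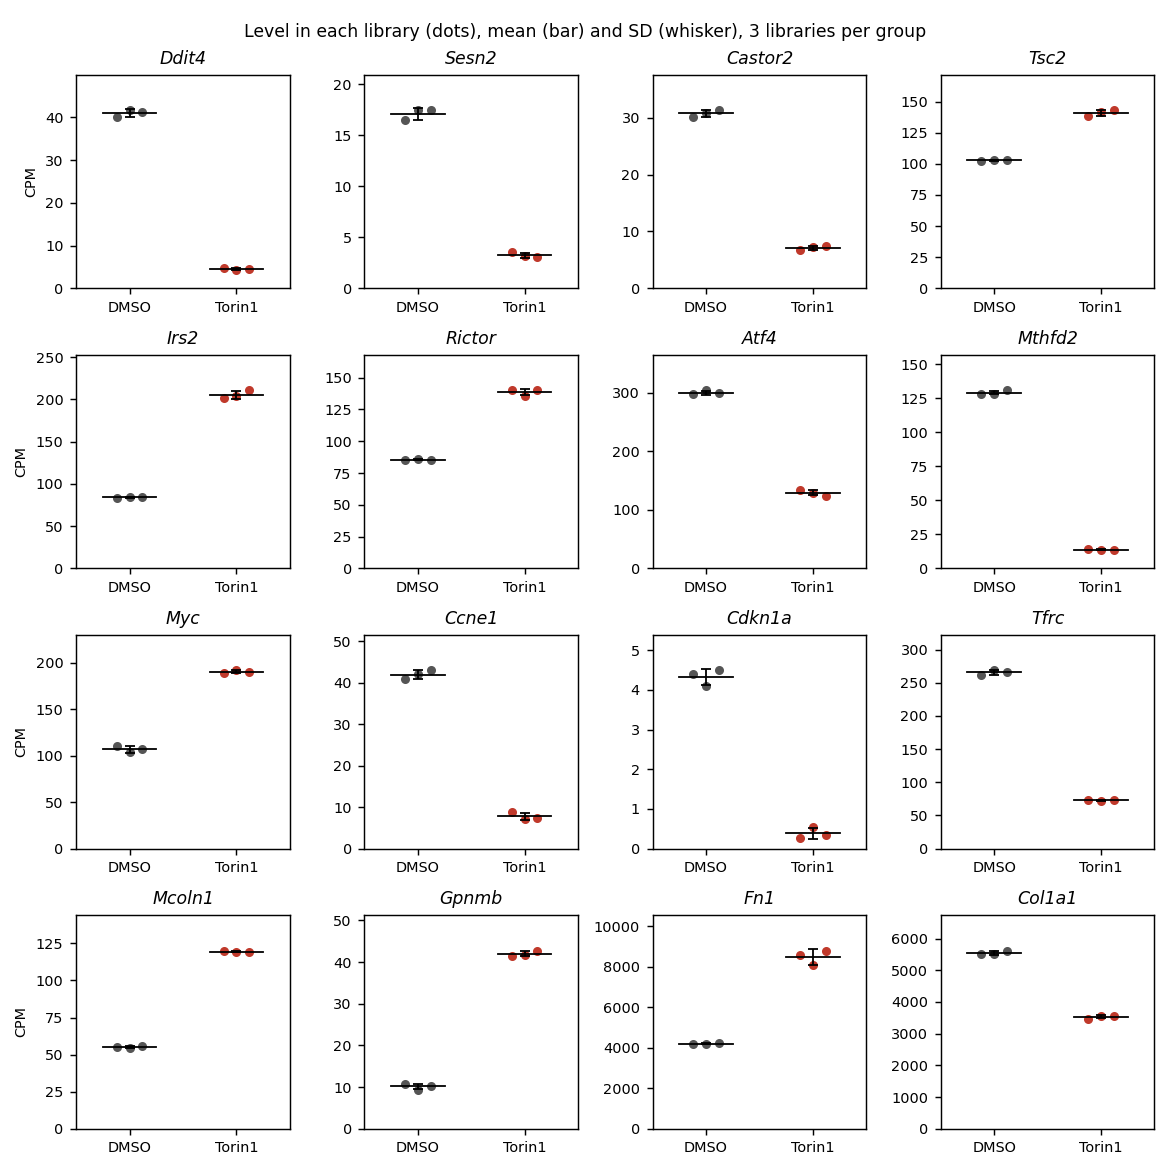
Level in CPM (y axis, from 0) of 16 genes in each library with DMSO (grey) and Torin1 (red); bars are means and whiskers SDs of 3 libraries. In no panel do the groups overlap; Ddit4, Sesn2, Castor2, Atf4, Mthfd2, Ccne1, Cdkn1a, Tfrc and Col1a1 are lower with Torin1 and the other 7 genes higher.

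Receptors and adaptors of growth factor signalling mostly rose: 15 of 22 rose and 5 fell (median 0.27). Irs2, an adaptor of the insulin and IGF-1 receptors, was at 83.7, 84.6 and 84.6 CPM with DMSO and 202, 204 and 211 CPM with Torin1 (1.28 ± 0.02). The receptor genes Igf1r (0.98 ± 0.03), Insr (0.51 ± 0.03), Egfr (1.39 ± 0.04) and Ddr1 (1.07 ± 0.02) rose with it, and Irs1 was higher (0.99 ± 0.03), with 30.9% of its exonic bases shared with another gene. Grb10, an adaptor that mTORC1 phosphorylates and that inhibits those receptors, fell (-0.29 ± 0.02). Among IGF ligands and binding proteins Igf2 was at 53.1, 57.3 and 54.7 CPM with DMSO and 176, 174 and 178 CPM with Torin1 (1.68 ± 0.03) and Igfbp2 at 4.81, 4.38 and 4.604 CPM with DMSO and 27.7, 29.7 and 27.999 CPM with Torin1 (2.63 ± 0.07), whereas Igfbp5 fell (-1.95 ± 0.25). Of 21 FoxO factors and targets, 14 rose and 5 fell (median 0.37). The muscle-wasting ubiquitin ligase Fbxo32 was at 7.91, 7.80 and 7.73 CPM with DMSO and 67.0, 69.7 and 70.9 CPM with Torin1 (3.15 ± 0.05), and Klhl24 (2.25 ± 0.03), Foxo1 (1.119 ± 0.05) and Pik3ip1, an inhibitor of PI3 kinase (1.08 ± 0.05), rose. Bcl6 (-1.05 ± 0.06) and Pdk4 (-0.93 ± 0.08), targets of FoxO in other tissues, fell. Feedback genes of the ERK pathway showed no common direction (10 rose, 9 fell, median -0.04, or 0.08 with upper-quartile factors). The phosphatase genes Dusp1 (1.57 ± 0.03) and Dusp4 (0.92 ± 0.06) rose, and Dusp9 (-1.48 ± 0.06) and the ERK-responsive factor Etv5 (-0.88 ± 0.05) fell.

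Genes of amino acid supply were among the most lowered. Of 19 enzymes that make serine and glycine and pass their carbon to folate, 14 fell and 2 rose, 4 with upper-quartile factors (median -1.23, against 0.04 for all genes), and 10 fell by at least 2-fold. Mthfd2, the mitochondrial methylene-folate dehydrogenase, was at 128, 128 and 131 CPM with DMSO and 14.5, 13.6 and 13.4 CPM with Torin1 (-3.23 ± 0.04). Aldh1l2, which oxidises formyl-folate in mitochondria, was at 41.9, 43.4 and 42.9 CPM with DMSO and 1.74, 1.98 and 1.87 CPM with Torin1 (-4.51 ± 0.07). Psat1, the aminotransferase of serine synthesis, was at 364, 354 and 372 CPM with DMSO and 59.6, 58.4 and 60.2 CPM with Torin1 (-2.61 ± 0.02). The ranges of the groups were far apart in all 3. Phgdh, the first enzyme of serine synthesis (-1.28 ± 0.02), and Shmt2, which makes glycine in mitochondria (-1.59 ± 0.02), also fell. Amt of the glycine cleavage system rose (0.45 ± 0.10).

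Genes of the integrated stress response, in which the factor ATF4 induces amino acid synthesis and transport, fell as a group: 19 of 22 fell and 1 rose, 3 with upper-quartile factors (median -0.75). Atf4 was at 297, 304 and 299 CPM with DMSO and 133, 129 and 124 CPM with Torin1 (-1.22 ± 0.02). Trib3, a pseudokinase induced by ATF4, was at 11.5, 12.1 and 10.4 CPM with DMSO and 1.74, 0.539 and 0.854 CPM with Torin1 (-3.48 ± 0.16). Cth, which makes cysteine, was at 9.22, 8.28 and 8.84 CPM with DMSO and 1.51, 1.08 and 1.33 CPM with Torin1 (-2.75 ± 0.12). No Torin1 library reached the lowest DMSO library in any of them. Asns, asparagine synthetase (-1.30 ± 0.03), Atf5 (-1.59 ± 0.04) and Pck2 (-1.56 ± 0.03) fell too. Ppp1r15a, the phosphatase subunit that ends the response, rose (0.68 ± 0.06). Of 26 amino acid transporters, 19 fell and 7 rose (median -0.51). Slc7a5, the large neutral amino acid carrier, was at 261, 273 and 275 CPM with DMSO and 65.2, 64.1 and 64.2 CPM with Torin1 (-2.06 ± 0.02), and its partner Slc3a2 (-0.82 ± 0.02), the cystine carrier Slc7a11 (-1.38 ± 0.06) and the glutamine carrier Slc1a5 (-1.14 ± 0.04) fell. The cationic carrier Slc7a2 was at 80.5, 87.2 and 79.7 CPM with DMSO and 281, 268 and 283 CPM with Torin1 (1.75 ± 0.02), and the lysosomal carriers Slc38a7 (1.28 ± 0.03) and Slc36a1 (0.74 ± 0.04) rose.

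The promoters of the folate and stress response lists were searched for TGATGNAAN, the composite element at which ATF4 and C/EBP factors bind. Both strands were searched in RefSeq windows of GRCm38.p6, here and below only over the 250 bases before each start. It was found in 6 of 44 windows of these lists (13.6%). All 6 belong to genes of the stress response list, and none to the serine, glycine and folate enzymes. Over all 32851 windows the share was 3.44%, and of the 13981 windows of tested genes 274 had a match. The 4 matches in called enzymes below are shown because their genes fell together. Each is the stretch around the match, upstream of the start and read in the direction of the gene, with the match in capitals. It lies 23 bases before the start in Asns (chr6:7693210-7693272, minus strand), 194 in Chac1 (chr2:119351008-119351096, plus strand, matched on the opposite strand), 104 in Pck2 (chr14:55540122-55540210, plus strand, opposite strand) and 103 in Pycr1 (chr11:120643803-120643891, minus strand).
Asns: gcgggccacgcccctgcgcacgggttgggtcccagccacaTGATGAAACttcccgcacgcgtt
Chac1: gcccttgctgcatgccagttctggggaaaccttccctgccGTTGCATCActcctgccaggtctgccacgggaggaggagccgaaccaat
Pck2: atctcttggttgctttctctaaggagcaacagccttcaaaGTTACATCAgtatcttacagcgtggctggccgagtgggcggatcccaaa
Pycr1: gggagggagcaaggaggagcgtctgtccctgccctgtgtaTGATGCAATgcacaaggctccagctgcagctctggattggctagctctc
Chac1, a glutathione-degrading enzyme, fell (-1.05 ± 0.08), as did Pycr1, which makes proline (-0.72 ± 0.06). The other 2 windows with a match belong to Vldlr, a lipoprotein receptor that fell (-0.42 ± 0.11), and to Nupr1, a stress-induced chromatin protein that was not called (0.09 ± 0.08).

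Most genes for tRNA loading and for nucleotide and polyamine synthesis fell. Of 37 aminoacyl-tRNA synthetases, which load amino acids onto tRNAs, 29 fell and 5 rose, 9 with upper-quartile factors (median -0.51). The cytosolic enzymes for alanine (Aars, -1.77 ± 0.02, 15.1% shared with another gene), cysteine (Cars, -1.42 ± 0.03), tyrosine (Yars, -1.17 ± 0.03) and glycine (Gars, -1.16 ± 0.02) fell most. That for glutamine was at 147, 147 and 148 CPM with DMSO and 228, 228 and 232 CPM with Torin1 (Qars, 0.64 ± 0.02) and rose in all 3 libraries. Of 29 purine and pyrimidine genes, 21 fell and 8 rose (median -0.60). The S-phase enzymes Tk1, thymidine kinase (-2.34 ± 0.03), and Rrm2, the small subunit of ribonucleotide reductase (-1.98 ± 0.02), fell most, while their counterparts that serve resting cells rose (Tk2 0.72 ± 0.05, Rrm2b 0.51 ± 0.05). Ctps, CTP synthase, was at 273, 272 and 277 CPM with DMSO and 430.0, 440.0 and 440.0 CPM with Torin1 and rose (0.67 ± 0.02), whereas Ppat, the first step of purine synthesis, fell (-1.10 ± 0.03). Of 12 polyamine genes 8 fell, among them spermidine synthase (Srm, -1.20 ± 0.02), and Azin2, an antizyme inhibitor, was at 14.1, 11.4 and 11.9 CPM with DMSO and 42.6, 45.9 and 45.0 CPM with Torin1 (1.83 ± 0.05).

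Of 37 genes for ribosome assembly and RNA polymerases I and III, 30 fell and 6 rose (median -0.55). Polr3g, a polymerase III subunit abundant in growing cells, was at 22.8, 22.7 and 23.1 CPM with DMSO and 7.57, 7.17 and 6.94 CPM with Torin1 (-1.66 ± 0.06), and the nucleolar proteins Nolc1 (-1.18 ± 0.02), Dkc1 (-1.09 ± 0.02) and Bop1 (-1.02 ± 0.03) fell. Against that direction, Npm1, nucleophosmin, was at 1904, 1892 and 1856 CPM with DMSO and 2619, 2652 and 2561 CPM with Torin1 (0.47 ± 0.01), and Maf1, the repressor of polymerase III, rose (0.35 ± 0.03). The Torin1 libraries lay above the DMSO libraries for Npm1 and below them for Polr3g.

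Mitochondrial genes encoded in the nucleus fell by smaller steps. Of 77 mitochondrial ribosomal proteins, 68 fell and 5 rose (median -0.36), with Mrpl18 at -1.10 ± 0.03 and Mrpl20 at -1.07 ± 0.04 and the largest rise in Mrpl23 (0.82 ± 0.06). Of 24 import genes 19 fell and 2 rose, 5 with upper-quartile factors (median -0.43), led by the outer-membrane pore Tomm40 (-1.13 ± 0.03). Of 23 genes of the tricarboxylic acid cycle and glutamine use, 18 fell (median -0.46). Ogdh, the 2-oxoglutarate dehydrogenase, was at 221, 220.4 and 226 CPM with DMSO and 89.9, 93.5 and 87.3 CPM with Torin1 (-1.30 ± 0.02), and pyruvate carboxylase fell (Pcx, -1.14 ± 0.03). Of 21 genes for mitochondrial biogenesis and DNA maintenance, 16 fell and 5 rose (median -0.29): the factors Nrf1 (-0.83 ± 0.04) and Tfam (-0.49 ± 0.03) fell and Esrra (0.69 ± 0.05) and Ppargc1b (0.94 ± 0.09) rose.

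Genes of DNA replication and mitosis fell throughout. All 37 genes for origin licensing and the replication fork fell (median -1.150), and so did all 36 genes for mitotic entry, the spindle and condensin (median -1.29). The summed level of the replication genes was 4583 to 4629.5 CPM with DMSO and 2067 to 2104 CPM with Torin1, and that of the mitotic genes 6875 to 6931 CPM with DMSO and 2981 to 3022 CPM with Torin1. Cdc6, which loads the replicative helicase, was at 65.7, 63.1 and 65.6 CPM with DMSO and 13.6, 13.3 and 14.3 CPM with Torin1 (-2.24 ± 0.04). Mki67, the proliferation marker Ki-67, was at 397, 395 and 393 CPM with DMSO and 141, 132 and 143 CPM with Torin1 (-1.51 ± 0.02). Ccnb1, cyclin B1, was at 245, 233 and 237 CPM with DMSO and 89.1, 89.6 and 88.1 CPM with Torin1 (-1.42 ± 0.02). The groups were apart in each, as they were in all 73 genes of both lists and in 78.5% of all tested genes. Of 20 recombination and mismatch repair genes 19 fell, led by Fanca (-1.83 ± 0.04), and 1 rose.

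Genes of the switch into S phase fell on both sides. Of 15 G1 cyclins, kinases and inhibitors, 11 fell and 3 rose (median -0.78). Cyclin E1, which starts S phase, was at 40.8, 42.0 and 42.9 CPM with DMSO and 8.76, 7.17 and 7.31 CPM with Torin1 (Ccne1, -2.44 ± 0.05), and cyclins D2 (Ccnd2, -0.78 ± 0.02) and D3 (Ccnd3, -0.55 ± 0.02) fell less. The inhibitor p21 was at 4.41, 4.11 and 4.49 CPM with DMSO and 0.258, 0.539 and 0.347 CPM with Torin1 (Cdkn1a, -3.48 ± 0.20). So the cyclin that drives entry and an inhibitor that stops it were both lower in every Torin1 library. Of the other inhibitors, Cdkn2c (-1.06 ± 0.03) and Cdkn2d (-1.26 ± 0.05) fell, and Cdkn1b, p27 (0.16 ± 0.02), Cdkn2a (0.36 ± 0.02) and Cdkn2b, p15 (0.60 ± 0.03), rose. Cdkn1c, p57, fell (-0.31 ± 0.14), with 30.7% of its exonic bases shared with another gene, and its call was lost with upper-quartile factors (-0.19), with DESeq2's Wald test (-0.34), and without DMSO replicate 1 (-0.27) or 2 (-0.32) or Torin1 replicate 1 (-0.27) or 3 (-0.28). Among E2F and retinoblastoma genes, 14 of 19 fell (median -0.83): E2f2 was at 10.2, 10.2 and 10.9 CPM with DMSO and 1.45, 1.76 and 1.63 CPM with Torin1 (-2.69 ± 0.11), and E2f8 (-1.87 ± 0.05) and Foxm1 (-1.41 ± 0.02) fell, while Rb1 (0.31 ± 0.06) rose.

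Of 65 replication-dependent histone genes only 28 passed the filter, and 15 fell and 6 rose (median -0.96). With only genes at a mean of at least 5 CPM 1 rose and 0 fell (median 0.63). The summed level of the list was 25.2 to 27.3 CPM with DMSO and 26.7 to 28.2 CPM with Torin1. Chromatin genes tied to division fell, among them the helicase Hells (-1.73 ± 0.02), the maintenance methylase Dnmt1 (-1.27 ± 0.02), lamin B1 (Lmnb1, -1.41 ± 0.02) and the Polycomb methylase Ezh2 (-0.64 ± 0.02). Its counterpart in resting cells, Ezh1, was at 18.9, 17.4 and 20.1 CPM with DMSO and 39.8, 40.3 and 37.9 CPM with Torin1 and rose (1.06 ± 0.04), with Cbx7 (0.93 ± 0.06). In the MYC network 5 genes rose and 5 fell, 3 with upper-quartile factors. Myc was at 111, 104 and 107 CPM with DMSO and 189, 192 and 190.3 CPM with Torin1 (0.83 ± 0.02) and Mycl at 7.30, 7.24 and 7.03 CPM with DMSO and 29.1, 30.3 and 30.9 CPM with Torin1 (2.07 ± 0.06), both higher in every Torin1 library. The antagonists Mnt (0.95 ± 0.03) and Mxd4 (0.57 ± 0.03) rose too, and Mxd3 fell (-1.78 ± 0.06). Genes of p53 and cell death had no common direction (10 rose, 10 fell), with the death receptor Fas (1.34 ± 0.03) and Bcl2 (1.03 ± 0.05) among the rises. Trp53 was not called (-0.05 ± 0.04).

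Genes of lipid synthesis fell. Of 27 genes for sterol synthesis and its control, 26 fell (median -1.06), and their summed level was 4097 to 4155 CPM with DMSO and 2195 to 2233 CPM with Torin1. Idi1, isopentenyl diphosphate isomerase, was at 81.3, 83.0 and 81.4 CPM with DMSO and 24.1, 24.3 and 23.6 CPM with Torin1 (-1.77 ± 0.04). All Torin1 libraries lay below the DMSO libraries, and Insig1, which retains SREBP in the ER and is itself an SREBP target, fell as well (-0.60 ± 0.03). The factor genes fell less (Srebf1 -0.54 ± 0.02, Srebf2 -0.29 ± 0.02). The sterol element TCACNCCAC was found on neither strand in the 27 RefSeq windows available for 19 of these genes, and in 1.05% of all windows. Of 17 genes for fatty acid synthesis and desaturation, 15 fell (median -0.90), among them the elongase Elovl6 (-2.12 ± 0.03), the desaturase Scd1 (-1.20 ± 0.02) and the synthase Fasn (-1.23 ± 0.02). Acacb, the carboxylase that restrains fatty acid oxidation, was at 6.38, 7.45 and 6.28 CPM with DMSO and 17.0, 17.7 and 18.1 CPM with Torin1 and rose (1.40 ± 0.07). Of 23 genes for lipid storage, breakdown and oxidation 12 rose, with Plin2 on lipid droplets at 0.73 ± 0.03 and the lipase Mgll at 1.07 ± 0.15, and 7 fell. Of 15 lipid nuclear receptor and sterol efflux genes 7 rose and 6 fell (median 0.15). The cholesterol exporter Abca1 was at 27.5, 29.9 and 29.7 CPM with DMSO and 59.6, 61.5 and 65.8 CPM with Torin1 (1.11 ± 0.04). The exporter Abcg1 fell (-1.31 ± 0.33), but at a mean under 1 CPM over the 6 libraries.

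Genes of glucose uptake and glycolysis fell unevenly: 16 of 29 fell and 8 rose (median -0.20). Ldha, which makes lactate, was at 586, 567 and 587 CPM with DMSO and 228, 225 and 225 CPM with Torin1 (-1.36 ± 0.02), and Ldhb, the form that favours its use, was at 40.6, 40.4 and 41.5 CPM with DMSO and 72.2, 69.0 and 72.7 CPM with Torin1 (0.80 ± 0.03). These sister enzymes moved apart in all libraries. Pgam1 (-1.37 ± 0.02) and the glucose carrier Slc2a1 (-0.66 ± 0.02) fell, Eno2 rose (1.148 ± 0.04), and the hexokinase Hk1 was not called (0.02 ± 0.02). Hif1a (0.51 ± 0.02) and Vegfa (0.51 ± 0.03) rose, while the oxygen-sensing prolyl hydroxylase Egln3 (-1.02 ± 0.06) fell. Arrdc4, an arrestin-domain protein induced by glucose, was at 4.68, 4.29 and 5.19 CPM with DMSO and 16.0, 15.1 and 16.7 CPM with Torin1 (1.75 ± 0.08). Of 11 genes of the pentose phosphate pathway and NADPH, 9 fell, with Pgd at -1.26 ± 0.02 and G6pdx at -0.84 ± 0.03. Of 21 NRF2 targets and glutathione genes, 17 fell (median -0.73), with the quinone reductase Nqo1 at -1.56 ± 0.06, Srxn1 at -1.43 ± 0.03 and the glutamate-cysteine ligase Gclc at -1.04 ± 0.03. Among iron genes the transferrin receptor Tfrc was at 262, 269 and 266 CPM with DMSO and 72.6, 71.9 and 73.6 CPM with Torin1 (-1.87 ± 0.02). Slc40a1, the iron exporter, fell as well (-1.55 ± 0.30), but at a mean under 1 CPM over the 6 libraries.

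Lysosomal genes rose as a group. Of 40 hydrolases and membrane proteins, 35 rose and 1 fell (median 0.56), and their summed level was 4762 to 4780.1 CPM with DMSO and 6718 to 6801 CPM with Torin1. Mcoln1, the calcium channel of the lysosome, was at 55.4, 54.7 and 55.7 CPM with DMSO and 120.1, 119 and 119 CPM with Torin1 (1.11 ± 0.03). Gpnmb, a glycoprotein of loaded lysosomes, was at 10.7, 9.41 and 10.3 CPM with DMSO and 41.6, 41.8 and 42.8 CPM with Torin1 (2.05 ± 0.05). Ctsf, a cathepsin, was at 0.998, 1.13 and 1.26 CPM with DMSO and 6.86, 6.49 and 5.31 CPM with Torin1 (2.45 ± 0.14). The Torin1 libraries were higher in all 3, and only Gusb, glucuronidase, fell (-0.60 ± 0.03). Of 20 proton pump (V-ATPase) genes 13 rose and 3 fell (median 0.22), led by Atp6v0d1 (0.78 ± 0.03). Among MiT/TFE factors and autophagy genes 20 rose and 14 fell, 9 with upper-quartile factors (median 0.11). Gabarap (0.89 ± 0.02), Map1lc3b (0.81 ± 0.02), Atg14 (0.90 ± 0.05) and Rb1cc1, the FIP200 scaffold (0.94 ± 0.02), rose. The factor genes themselves fell (Tfeb -0.26 ± 0.08, Tfe3 -0.35 ± 0.03, Mitf -1.02 ± 0.12), Tfeb without a call under upper-quartile factors (-0.137), and the initiating kinase Ulk1 was not called (0.01 ± 0.03).

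The palindrome TCACGTGA, the core of the element that TFEB and TFE3 bind, was found in 6 of 57 windows of the lysosomal and V-ATPase genes (10.5%), in 0.785% of all 32851 windows and in 1.43% of the windows of tested genes. Windows around it from 3 genes that rose are shown, again from RefSeq, GRCm38.p6, upstream of the start and in the direction of the gene, with the palindrome in capitals. It lies 46 bases before the start in Mcoln1 (chr8:3500433-3500518, plus strand), 122 in Cln3 (chr7:126583311-126583398, minus strand) and 13 in Ctsa (chr2:164833720-164833772, plus strand).
Mcoln1: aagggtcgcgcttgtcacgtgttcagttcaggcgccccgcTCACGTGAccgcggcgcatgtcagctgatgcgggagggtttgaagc
Cln3: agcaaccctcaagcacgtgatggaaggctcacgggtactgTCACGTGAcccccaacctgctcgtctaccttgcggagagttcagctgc
Ctsa: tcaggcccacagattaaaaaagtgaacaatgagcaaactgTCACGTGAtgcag
Cln3, a lysosomal membrane protein, rose by 0.47 ± 0.16, but was not called by DESeq2's Wald test (0.44, adjusted p = 0.0528). Ctsa, a protective cathepsin, rose by 0.82 ± 0.02, with 17.4% of its exonic bases shared with another gene. The other windows belong to Ctsd (0.17 ± 0.02, 34.4% shared with another gene) and Gla, a galactosidase (0.51 ± 0.04), which rose, and to the V-ATPase gene Atp6v1a, which was not called (-0.01 ± 0.02).

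Genes of protein folding and degradation mostly fell. Of 26 genes of ER folding and the unfolded protein response, 22 fell (median -0.65). Hspa5, the chaperone BiP, was at 1419, 1427 and 1426 CPM with DMSO and 470.0, 462 and 456.2 CPM with Torin1 (-1.62 ± 0.02), and Dnajb11 (-1.70 ± 0.03) and Manf (-1.31 ± 0.03) fell with it, as did the factor Xbp1 (-0.67 ± 0.03). The sensor kinase gene Ern1 (IRE1) rose (0.30 ± 0.05). Of 25 heat shock and chaperonin genes 22 fell (median -0.59), with Hsph1 at -1.26 ± 0.02, but Hspa8, the constitutive HSC70, was at 1842, 1837 and 1794 CPM with DMSO and 2309, 2288 and 2289 CPM with Torin1 and rose (0.33 ± 0.01). Of 45 genes of the proteasome and its assembly 39 fell (median -0.86), and their summed level was 8234 to 8274 CPM with DMSO and 4612 to 4663 CPM with Torin1. Psmb3 was at 174, 172 and 176 CPM with DMSO and 67.7, 65.6 and 65.5 CPM with Torin1 (-1.39 ± 0.02). The interferon-inducible subunit Psmb8 was at 0.683, 0.477 and 0.725 CPM with DMSO and 2.35, 2.30 and 2.22 CPM with Torin1 (1.85 ± 0.20), and Psmb10 rose as well (0.43 ± 0.04). These were among the 5 rises of the list, of which 3 were called without DMSO replicate 3 and 2 by DESeq2's Wald test.

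Genes of the contractile cytoskeleton rose. Of 23 SRF and contractile genes 21 rose and 1 fell, 0 with upper-quartile factors (median 0.67). Actg2, smooth muscle gamma actin, was at 16.8, 15.9 and 15.6 CPM with DMSO and 81.8, 77.7 and 84.6 CPM with Torin1 (2.34 ± 0.04). Cnn1, calponin, was at 24.1, 25.2 and 25.4 CPM with DMSO and 108, 99.9 and 99.2 CPM with Torin1 (2.04 ± 0.03). Myh11, smooth muscle myosin, was at 0.368, 0.238 and 0.335 CPM with DMSO and 3.54, 3.40 and 2.88 CPM with Torin1 (3.35 ± 0.23). All 3 were higher in every Torin1 library, and Srf itself rose (0.40 ± 0.02). Of 20 YAP, TAZ and TEAD genes and targets 18 rose and 1 fell, 0 with upper-quartile factors (median 0.44), with Crim1 at 1.501 ± 0.02, Ccn1 at 1.23 ± 0.02 and Ankrd1 at 1.30 ± 0.02. Among 22 integrin genes 13 rose and 3 fell, and Itga8 was at 10.0, 10.1 and 9.18 CPM with DMSO and 46.3, 43.6 and 46.4 CPM with Torin1 (2.22 ± 0.05) and Itga5, the fibronectin receptor subunit, at 219, 213 and 216 CPM with DMSO and 514, 505 and 511 CPM with Torin1 (1.24 ± 0.02). Tubulins moved against this: Tubb3 was at 16.0, 13.4 and 17.7 CPM with DMSO and 4.09, 3.66 and 3.02 CPM with Torin1 (-2.15 ± 0.10), and Tubb4b (-1.39 ± 0.02) and Tubg1 of the centrosome (-1.30 ± 0.03) fell.

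**Figure D3:**
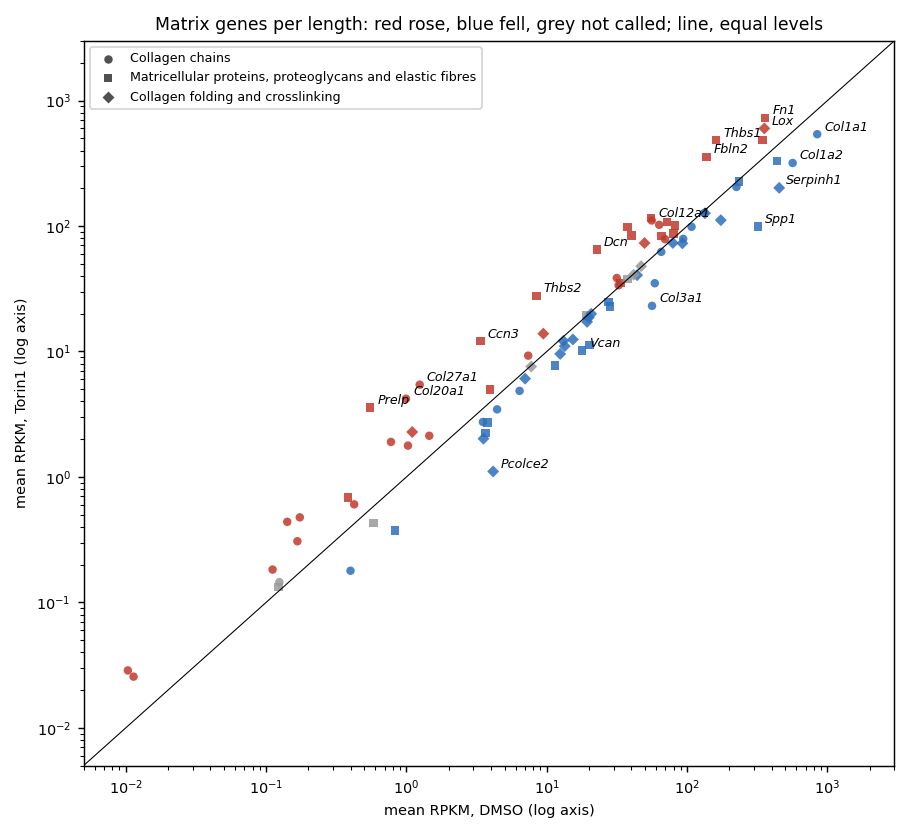
Mean level per length (RPKM, both axes on a log scale) with DMSO (x) and Torin1 (y) of collagen chains, matricellular proteins and collagen-modifying enzymes; points are genes, shaped by list, red if they rose, blue if they fell, grey if not called, and the line marks equal levels. Col1a1, Col1a2, Serpinh1 and Spp1 lie under the line and Fn1, Lox and Thbs1 above it.

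Matrix genes moved in both directions. Per length, the type I collagen chains Col1a1 and Col1a2 were among the most abundant matrix messages with DMSO and lost ground, as the plot of matrix genes per length shows. Col1a1 went from a mean of 846 to 539.5 RPKM (-0.65 ± 0.01) and Col1a2 from 565 to 318 (-0.83 ± 0.01), while fibronectin (Fn1) went from 359.5 to 726 (1.01 ± 0.03), from below Col1a1 to above it. Col3a1 was at 547, 551 and 559 CPM with DMSO and 225, 231 and 225 CPM with Torin1 (-1.28 ± 0.02). Of 32 collagen chains 18 rose and 13 fell (median 0.26), and among the rises were less abundant chains such as Col27a1, at 16.2, 16.5 and 15.8 CPM with DMSO and 70.3, 69.7 and 72.5 CPM with Torin1 (2.13 ± 0.04), and Col20a1 (2.08 ± 0.08). Of 23 genes for collagen folding and crosslinking 16 fell and 4 rose (median -0.11), but 8 and 8 with upper-quartile factors (median 0.02), so the direction of this list depends on the scaling. The collagen chaperone Serpinh1 (-1.17 ± 0.02) and the enhancer of procollagen cleavage Pcolce2 (-1.91 ± 0.07) fell, and lysyl oxidase rose (Lox, 0.76 ± 0.01).

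Of 33 matricellular proteins, proteoglycans and elastic fibre genes 18 rose and 11 fell (median 0.13). Thbs1, thrombospondin, was at 957, 981 and 978 CPM with DMSO and 2913, 2938 and 2966 CPM with Torin1 (1.597 ± 0.01). Prelp, a leucine-rich proteoglycan, was at 2.26, 1.61 and 2.09 CPM with DMSO and 13.3, 12.8 and 12.5 CPM with Torin1 (2.68 ± 0.10). Thbs2 (1.71 ± 0.03), Ccn3 (1.85 ± 0.05) and Dcn, decorin (1.51 ± 0.03), rose, and Vcan, versican (-0.80 ± 0.02), and Aspn, asporin (-0.84 ± 0.04), fell. Of 33 matrix proteases and inhibitors 25 rose and 6 fell, 3 with upper-quartile factors (median 0.56). Mmp13, a collagenase, was at 2.34, 1.61 and 1.87 CPM with DMSO and 18.4, 18.1 and 18.6 CPM with Torin1 (3.23 ± 0.09), and Mmp3 at 6.49, 5.57 and 6.47 CPM with DMSO and 26.0, 27.5 and 25.1 CPM with Torin1 (2.08 ± 0.06). Both were separated between the groups, and Adamts6 (1.93 ± 0.04) and Mmp11 (1.55 ± 0.03) rose too.

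Secreted signals of development rose more often than they fell. Of 36 TGF-beta and BMP genes 32 rose and 2 fell, 0 with upper-quartile factors (median 0.61). Ltbp2, which binds microfibrils, was at 93.6, 92.7 and 97.4 CPM with DMSO and 416, 411 and 425 CPM with Torin1 (2.14 ± 0.02). Inhba, an activin chain, was at 61.1, 62.5 and 58.5 CPM with DMSO and 158, 156 and 166 CPM with Torin1 (1.40 ± 0.03), and its antagonist Fst, follistatin, at 8.46, 10.8 and 10.0 CPM with DMSO and 25.7, 29.0 and 26.5 CPM with Torin1 (1.48 ± 0.06). Ligand and antagonist were thus higher together, as were Bmp4 (1.28 ± 0.03) with the BMP-induced inhibitor Smad6 (1.35 ± 0.04) and the target genes Id1 (0.67 ± 0.03) and Id3 (0.48 ± 0.02). Of 44 Wnt ligands, receptors and inhibitors 29 rose and 11 fell (median 0.39); with genes under a mean of 5 CPM left out 16 rose and 6 fell, fewer genes being tested. Wnt7a was at 0.683, 0.387 and 0.53 CPM with DMSO and 6.12, 5.61 and 6.11 CPM with Torin1 (3.45 ± 0.16), and Nkd2, a feedback inhibitor of the pathway, at 5.38, 4.56 and 4.30 CPM with DMSO and 25.4, 23.6 and 27.3 CPM with Torin1 (2.42 ± 0.07). Wnt9a (1.61 ± 0.11), Sfrp1, which binds Wnt ligands (1.36 ± 0.03), and Axin2, a target of the pathway (0.83 ± 0.10), rose, and Dkk2 (-0.71 ± 0.04) and Fzd4 (-0.80 ± 0.13) fell.

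Hedgehog genes went apart. Gli1, both a factor and a target of the pathway, was at 7.22, 5.75 and 5.52 CPM with DMSO and 0.29, 0.34 and 0.561 CPM with Torin1 (-3.92 ± 0.18, adjusted p = 2.6e-49). Hhip, the decoy receptor that is likewise a target, was at 79.0, 76.3 and 79.0 CPM with DMSO and 189, 187 and 191 CPM with Torin1 (1.28 ± 0.02), and Ptch1, a further target, was not called (-0.01 ± 0.03). Gli1 was lower and Hhip higher in every Torin1 library, and the transducer Smo fell (-0.55 ± 0.02). Of Notch genes, Notch1 fell (-1.148 ± 0.06) and Jag1 (0.69 ± 0.03), Notch2 (0.66 ± 0.02) and Notch3 (0.78 ± 0.14) rose. Among semaphorins, plexins and neuropilins 17 of 28 rose and 10 fell (median 0.27), against 39.8% and 38.3% of all genes. Sema3b was at 4.597, 3.66 and 3.88 CPM with DMSO and 13.1, 12.3 and 12.6 CPM with Torin1 (1.64 ± 0.08), and Nrp1, a semaphorin and VEGF receptor, fell (-0.94 ± 0.03).

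Inflammatory genes rose with exceptions. Of 29 NF-kB factors and effectors 20 rose and 4 fell, 2 with upper-quartile factors (median 0.61). Il6 was at 5.02, 4.32 and 4.30 CPM with DMSO and 28.5, 28.6 and 28.2 CPM with Torin1 (2.64 ± 0.07). Saa3, an acute phase protein, was at 13.9, 14.3 and 14.5 CPM with DMSO and 59.3, 59.7 and 61.3 CPM with Torin1 (2.08 ± 0.04). The Torin1 libraries were higher for both, the inhibitor Nfkbia rose (1.16 ± 0.02), and the receptors Tlr4 (-0.59 ± 0.07) and Il1rl1 (-0.62 ± 0.02) fell. Of 21 chemokines 13 rose and 5 fell (median 0.72). Ccl5 was at 6.80, 6.31 and 4.80 CPM with DMSO and 48.2, 46.8 and 45.3 CPM with Torin1 (2.96 ± 0.06), whereas Cxcl10 was at 9.56, 10.2 and 9.18 CPM with DMSO and 3.93, 4.25 and 3.60 CPM with Torin1 (-1.30 ± 0.09). Both are targets of NF-kB and interferon, and they moved in opposite directions. Of 14 complement genes 8 rose and 2 fell, among them the protease gene C1ra (2.11 ± 0.03) and the inhibitor Clu (1.39 ± 0.04). C1s1, its partner in the C1 complex, was not on the list and rose by 2.86 ± 0.02, with 18.4% of its exonic bases shared with another gene.

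Interferon-responsive genes also rose with exceptions: 25 of 37 rose and 6 fell (median 0.47). Gbp2, a guanylate-binding protein, was at 11.2, 12.4 and 12.5 CPM with DMSO and 64.3, 61.5 and 59.7 CPM with Torin1 (2.36 ± 0.04), and Xaf1 (1.57 ± 0.07) and Nlrc5, which induces MHC class I genes (1.41 ± 0.11), rose. Ifit2 fell (-0.53 ± 0.03), as did the MHC gene H2-K1 (-0.47 ± 0.03) and Isg15, at 1.71, 1.82 and 1.59 CPM with DMSO and 1.09, 0.907 and 0.801 CPM with Torin1 (-0.88 ± 0.20). Of 19 JAK-STAT genes 15 rose and 3 fell, 1 with upper-quartile factors (median 0.35). The receptor gene Osmr was at 113, 117 and 119.6 CPM with DMSO and 336, 333 and 339 CPM with Torin1 (1.53 ± 0.02), the feedback inhibitor Socs2 at 6.67, 6.97 and 6.89 CPM with DMSO and 27.0, 26.3 and 24.8 CPM with Torin1 (1.93 ± 0.06). The related Socs1 was not called (-0.03 ± 0.07).

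Of 14 KLF factors 11 rose and 1, Klf16, fell (-0.69 ± 0.04), with Klf11 at 5.65, 6.17 and 5.55 CPM with DMSO and 17.5, 19.5 and 18.7 CPM with Torin1 (1.68 ± 0.07). AP-1 and immediate early genes split (10 rose, 9 fell): Fosl1 was at 63.6, 63.6 and 64.6 CPM with DMSO and 29.9, 28.5 and 27.8 CPM with Torin1 (-1.16 ± 0.04) and Jun (-0.70 ± 0.02) and Atf3 (-1.07 ± 0.12) fell, while Maff was at 20.0, 21.2 and 17.4 CPM with DMSO and 47.2, 47.9 and 49.3 CPM with Torin1 (1.30 ± 0.04) and Zfp36 (1.17 ± 0.05) rose. Each group of libraries was apart from the other in these genes.

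Long noncoding RNAs rose more often than coding genes. Of 1419 tested, 770 rose and 112 fell, with a median log2 fold change of 0.60, against 5065 and 5741 of 13110 protein-coding genes, with a median of -0.03. By level, under a mean of 1 CPM 367 of 806 noncoding genes rose and 29 fell, and 556 of 1474 coding genes rose and 222 fell. At 1 to 10 CPM 348 of 524 noncoding genes rose and 58 fell (median 0.61), against 1155 and 628 of 2405 coding genes (median 0.23). At 10 CPM or more the counts were 55 and 25 of 89 (median 0.30) against 3354 and 4891 of 9231 (median -0.11). A gene that passed the filter only through the group where it is high had to differ, which weighs on the lowest level most.

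**Figure D4:**
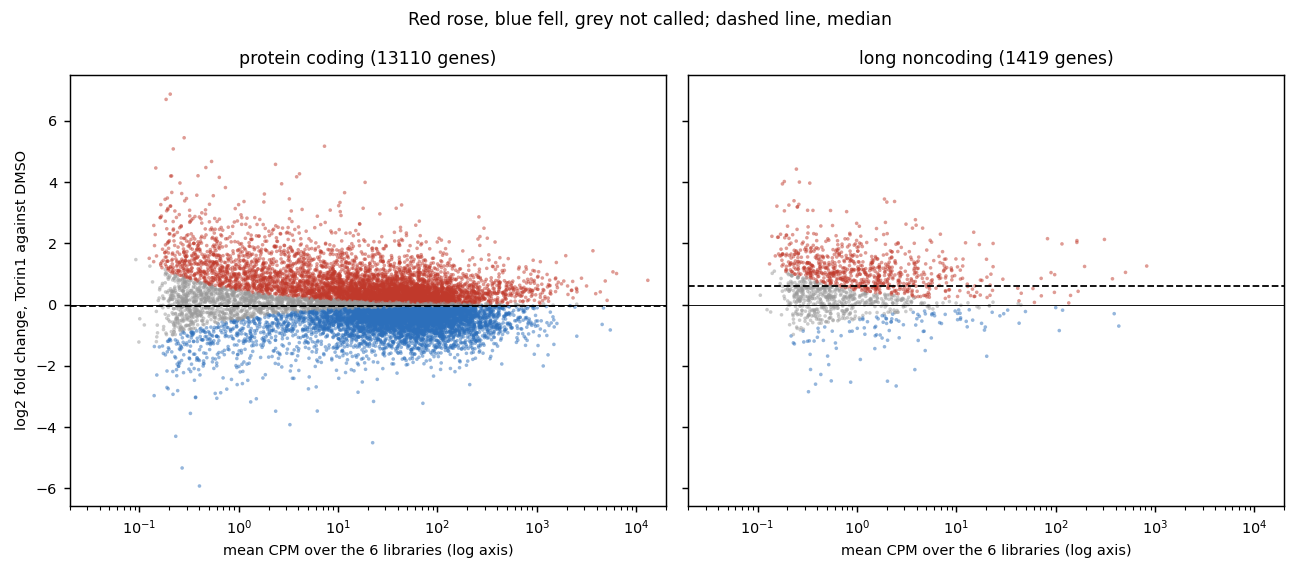
Log2 fold change with Torin1 (y axis) against the mean level over the 6 libraries (x axis, CPM, log scale) of 13110 protein-coding and 1419 long noncoding genes; dots are genes, red if they rose, blue if they fell, grey if not called, and dashed lines mark medians of -0.03 and 0.60. The coding genes spread to both sides of 0, and most called noncoding genes lie above it.

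Among the noncoding genes with the largest rises, Firre, a nuclear RNA of the X chromosome, was at 30.1, 29.8 and 31.2 CPM with DMSO and 133, 135 and 137 CPM with Torin1 (2.15 ± 0.03). Meg3, a maternally expressed imprinted RNA, was at 48.3, 46.9 and 45.0 CPM with DMSO and 181, 186 and 187 CPM with Torin1 (1.98 ± 0.03). Zfas1, a host of small nucleolar RNAs, was at 61.6, 59.6 and 65.2 CPM with DMSO and 273, 261 and 261 CPM with Torin1, with 18.5% of its exonic bases shared with a small RNA gene (2.09 ± 0.02). None of these groups overlapped. Of 18 noncoding hosts of small nucleolar RNAs 13 rose and 4 fell (median 0.40), with Epb41l4aos at 1.48 ± 0.05 and Snhg17 at 0.86 ± 0.03 among the rises and Snhg5 among the falls (-0.61 ± 0.04).

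Some genes lay under 1 CPM in a group and at 3 CPM or more in the other. Lims2, a partner of integrin-linked kinase, was at 0.394, 0.387 and 0.391 CPM with DMSO and 14.2, 14.6 and 13.9 CPM with Torin1 (5.17 ± 0.14). Krt7, a keratin of simple epithelia, was at 0.394, 0.536 and 0.279 CPM with DMSO and 6.63, 8.02 and 7.15 CPM with Torin1 (4.18 ± 0.16). Pgm5, which sits at cell adhesions, was at 0.289, 0.328 and 0.363 CPM with DMSO and 5.86, 4.51 and 4.91 CPM with Torin1 (3.95 ± 0.20). All 3 were near silent with DMSO and present in each Torin1 library. Krt8, another keratin of simple epithelia, was at 0, 0.0298 and 0.0558 CPM with DMSO and 0.386, 0.482 and 0.587 CPM with Torin1 (3.97 ± 0.65), while the epithelial markers Epcam and Cldn4 did not pass the filter and Cdh1 was not called (-0.57 ± 0.49); the part of epithelial cells in these rises was not tested. In the other direction, beside Gli1 and Cdkn1a, Nfatc2, a calcium-regulated factor, was at 3.36, 3.34 and 2.54 CPM with DMSO and 0.966, 0.766 and 1.07 CPM with Torin1 (-1.72 ± 0.18), and Prokr1, a receptor, fell (-1.92 ± 0.16).

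A few abundant genes changed least. Cct2, a chaperonin subunit, was at 626, 624 and 629 CPM with DMSO and 636, 626 and 615 CPM with Torin1. Sf3b2, a splicing factor, was at 441, 435 and 437 CPM with DMSO and 429, 442 and 439 CPM with Torin1. The groups overlapped in both. The log2 fold change with its normal 95% margin stayed within 0.039 of 0 for these genes and for the mitochondrial channel Vdac2, the reductase Cyb5r3 and the nonmuscle myosin Myh10. Their closeness to 0 depends on the scaling and the filter: upper-quartile factors put all 5 at 0.12 to 0.13, and a mean of at least 5 CPM put them at 0.08 to 0.09, and both called them. DESeq2's Wald test called Myh10 (-0.03).

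Torin1 was next set beside RapaLink-1, a molecule that joins rapamycin by a linker to a kinase inhibitor, and beside rapamycin. The doses differ (250 nM, 10 nM and 20 ng/ml), so differences are between these doses, and comparisons against DMSO share the same 3 DMSO libraries. Between Torin1 and RapaLink-1, 33.2% of genes were called, 16.4% higher and 16.7% lower with Torin1, and 173 (1.09%) and 53 (0.333%) by at least 2-fold. Between Torin1 and rapamycin 67.5% were called, 34.2% higher and 33.2% lower, and 772 (4.85%) and 523 (3.29%) by at least 2-fold.

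The genes that differed most from RapaLink-1 did so in several patterns. Ndnf, a secreted fibronectin-domain protein, was at 5.60 ± 0.239 CPM with DMSO (mean ± SD, n = 3), 6.17 ± 0.542 with rapamycin, 4.12 ± 0.242 with RapaLink-1 and 19.9 ± 1.46 with Torin1, a difference of 2.27 ± 0.08 on the log2 scale from RapaLink-1 (edgeR adjusted p = 2.7e-64). Itm2a, a membrane protein, was at 24.6 ± 0.109, 29.1 ± 1.24, 25.9 ± 0.991 and 74.5 ± 1.74 CPM in the same order (1.52 ± 0.04). Synpo2, an actin-binding protein, was at 9.39 ± 0.38, 8.42 ± 0.127, 8.61 ± 0.758 and 24.0 ± 0.801 CPM (1.47 ± 0.06). All 3 had their highest level with Torin1. Prl2c2, proliferin, was raised above DMSO by Torin1 (0.56 ± 0.03) and lowered by RapaLink-1 (-0.96 ± 0.03) and rapamycin (-0.75 ± 0.03), and Loxl4, a lysyl oxidase, was lowered by Torin1 (-0.30 ± 0.03) and raised by RapaLink-1 (0.38 ± 0.03). Prl2c2 has close copies in the genome, so its reads may be shared. Klf2 was higher with RapaLink-1 (23.2 ± 1.08 CPM) than with Torin1 (11.9 ± 0.289 CPM), and Egr1 was lower with Torin1 (42.7 ± 2.06 CPM) than with RapaLink-1 (66.8 ± 0.822 CPM) or rapamycin (109 ± 1.959 CPM).

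**Figure D5:**
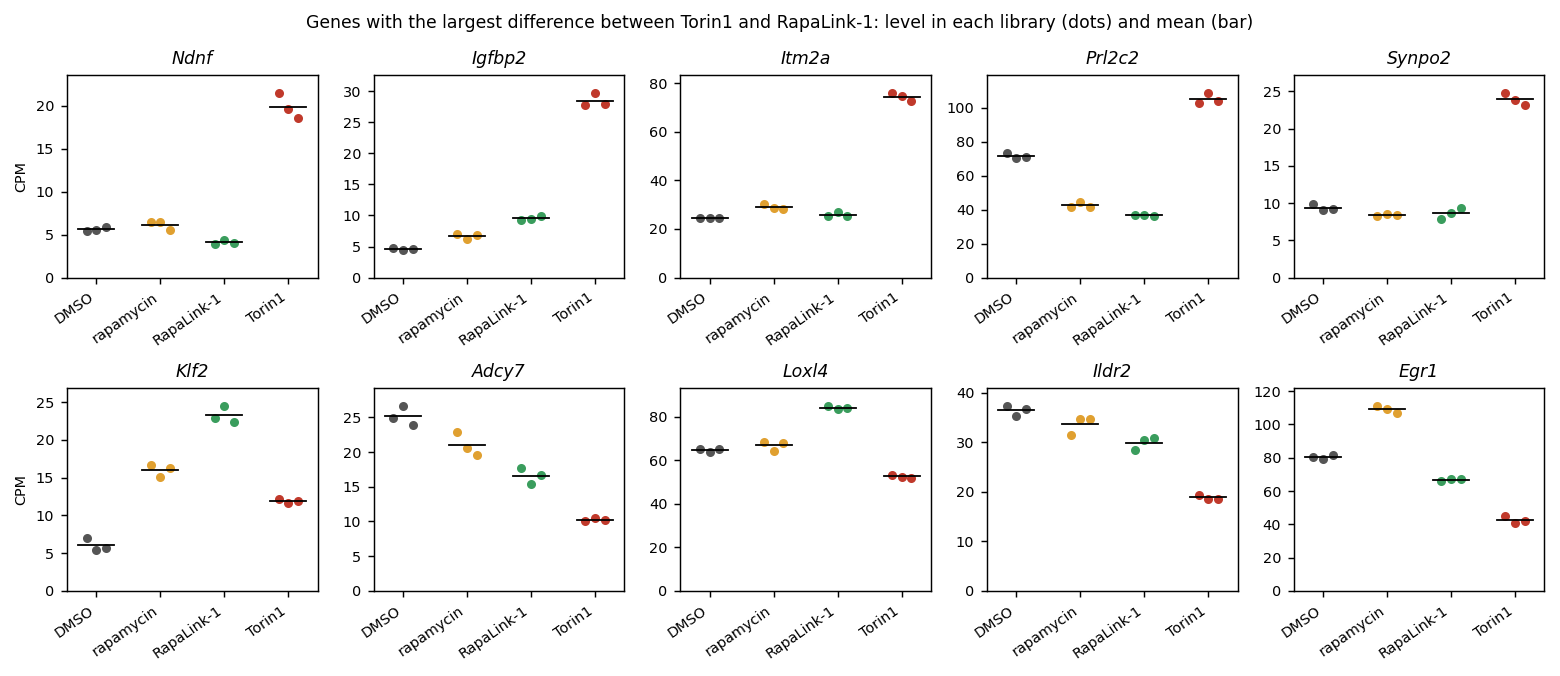
Level in CPM (y axis, from 0) of the 10 named genes with the largest difference between Torin1 and RapaLink-1, 5 higher (top) and 5 lower (bottom) with Torin1, in each library of the 4 groups; bars are means of 3 libraries. In all 10 panels the Torin1 libraries lie apart from the RapaLink-1 libraries, which was a condition of the choice. Among all genes 42.2% show such separation.

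By list, SRF and contractile genes were higher with Torin1 than with RapaLink-1 in 21 of 23 cases and lower in 0, and matricellular genes higher in 26 of 33 and lower in 1, against 16.4% and 16.7% of all genes. Wnt genes were higher in 24 of 44 and lower in 6. Mitotic genes were lower with Torin1 in 33 of 36 and higher in 0, and replication genes lower in 20 of 37 and higher in 2. Sterol genes were higher with Torin1, that is less lowered, in 19 of 27 (median against DMSO -1.06 with Torin1 and -1.29 with RapaLink-1), and lysosomal genes lower, that is less raised, in 24 of 40 (medians 0.56 and 0.62). Mitochondrial ribosomal proteins were higher in 22 of 77 and lower in 0. Against rapamycin, all 36 mitotic and all 37 replication genes were lower with Torin1, and 26 of 27 sterol genes. The medians of those lists with rapamycin against DMSO were -0.19, -0.35 and -0.17. Of the glycolytic genes 14 of 29 were higher and 11 lower with Torin1 than with rapamycin, and the medians against DMSO were -0.20 and -0.41. Their summed level was lower with Torin1 (5076 to 5146 CPM) than with rapamycin (5929 to 6077 CPM).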

How the data were processed

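RNA was isolated with the RNeasy mini kit and libraries were made with the NEBNext Ultra RNA kit, per the labels' protocols. Per the submitters' processing notes the tools were Trimmomatic 0.36, STAR 2.5.2b, Subread 1.5.2 with featureCounts, and DESeq2, on GRCm38. The deposited values are raw read counts per gene. Strand setting, annotation release and handling of multi-mapped reads: not given in the sources used here. Overlapping, antisense and duplicated genes are uncertain. Without a known strand setting, reads of a gene and its antisense partner cannot be told apart.

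The count tables of all 12 libraries (4 groups of 3) were fitted with edgeR 4.0.16 (R 4.3.3, limma 3.58.1): filterByExpr, TMM factors, robust quasi-likelihood, groups alone, 8 residual degrees of freedom, Benjamini-Hochberg adjustment and a threshold of 0.05. Fitting all groups lets them share an estimate of the spread. Log2 fold changes came from that fit at its default setting. Their standard errors were back-computed: the absolute log2 fold change without the default shrinkage, divided by the square root of the F statistic. A prior count of 2 was used only for levels put on a log scale. An exact permutation test of 3 against 3 libraries cannot go below p = 0.1. The members and gene lists were chosen with earlier results of these data known. Symbols were matched to 49056 of 49315 IDs. Overlap between genes is the share of a gene's exonic bases that lie in exons of another gene, by the exon coordinates in the count tables.

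Named genes are the 12 largest rises and falls at a mean of 10 CPM or more without overlap between groups, core and most changed members of each list, the largest noncoding changes, genes near silent in a group, the least changed abundant genes, the largest differences from RapaLink-1, genes with promoter matches and cell type markers. Map1lc3b, Ptch1, Smad6, Socs1, Tbc1d7 and Tsc1 were named after their values were seen, and some genes that meet the criteria are not reported. The rule allowed 648 genes, of which 631 were called, the largest adjusted p among those (edgeR) being 0.0451.

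On simulated counts for Torin1 against DMSO over 15031 genes, 41 of 50 genes changed 1.2-fold and 50 of 50 changed 1.5-fold were recovered. The changed genes all had expected counts above 50, and every gene was given the same spread. Recovery at lower counts or with unequal spread was not tested. Same-numbered libraries did not deviate together (correlations -0.0134 to -0.00122), and the labels do not say that numbers pair them. Alternatives were a replicate block, DESeq2 size factors, upper-quartile factors, no filter, a mean of at least 5 CPM, each library left out, only the 6 libraries compared, and DESeq2 1.42.0's Wald test.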

Additional observations from a re-analysis of the deposited data

How the results depend on the processing

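The counts of genes called, risen and fallen with Torin1 stayed within 1.5 times the reported ones under every alternative run. The counts past 2-fold did so with one exception: with only genes at a mean of at least 5 CPM, 697 rose and 485 fell by at least 2-fold, from fewer genes tested (10484). With the replicate block 12414 genes were called, 12394 of them shared with the 12422 reported. Whether the numbers pair the libraries is not stated in the labels. Leaving out a library gave 12058 to 12147 called genes, and DESeq2's Wald test gave 11594. Upper-quartile factors gave 7640 rises and 4999 falls. Between Torin1 and RapaLink-1, calls ranged from 4115 with DESeq2's Wald test to 5372 with upper-quartile factors. List medians near 0 changed sign: ERK feedback at a mean of at least 5 CPM (0.13), p53 and cell death without DMSO replicate 3 (-0.02) or Torin1 replicate 3 (-0.02), the MYC network without Torin1 replicate 1 (-0.01) and AP-1 genes without Torin1 replicate 2 (-0.01). The histone median, -0.96, also changed sign, to 0.63 at a mean of at least 5 CPM, where fewer genes were tested. Of the SRF list 0 genes fell without Torin1 replicate 3, of the complement list 1 fell without DMSO replicate 1, and of the sterol list 0 rose without DMSO replicate 1 or 2 or Torin1 replicate 2. In simulated counts most 1.2-fold changes were recovered, but only genes above a count floor were changed there. Smaller changes rest on the scaling.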
